A study of Mus musculus with 29 samples.

Results

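The interleukin-1 (IL1) family and inflammasome genes were described by 10 rows of the deposited count table, chosen by gene symbol: the ligands Il1a, Il1b, Il18 and Il33, the antagonist Il1rn, the receptors Il1r1, Il1r2 and Il1rl1, and the inflammasome genes Nlrp3 and Casp1. All 10 symbols were found among the 24421 genes of the table. The study asked how antibodies against PD1 and CTLA4, alone or combined (dual ICI, dual immune checkpoint inhibitor treatment), act on peritoneal dissemination of gastric cancer. RNA-seq was performed on the stripped peritoneum, with or without nodules, of 29 mice, with 1 library per mouse. All mice were female C57BL/6J mice of 5 to 6 weeks of age at the start, with no engineered allele named in the sources, and all were injected intraperitoneally (IP) with YTN16 cells, a gastric cancer line that grows in this strain.

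At day 21 after the injection there were 5 untreated mice, which received the antibody vehicle (PBS), and 5 dual ICI mice. At day 35 there were 5 untreated mice, 5 anti-PD1 mice, 4 anti-CTLA4 mice, 2 dual ICI-uncured mice (replicates 1 and 5) and 3 dual ICI-cured mice (replicates 2, 3 and 4). The labels name the treatment and day but not the outcome, so uncured and cured mice were told apart by matching the number in each library's title to the mouse numbers of the study. The study's text also speaks of a cured mouse in the anti-PD1 group, but no source used here says which library it is, so the anti-PD1 group is not a group of uncured mice only. The model rests on 1 cell line injected into the peritoneal cavity, and no group of mice without injected cells is part of these data. Day 21 and day 35 libraries carry different series of sequencing codes in their labels. By the study's timeline, mice kept to day 35 also received further doses from day 21 on. Day, number of doses and sequencing series therefore cannot be told apart. The 2 uncured mice were also selected by outcome, while the dual ICI mice of day 21 were not.

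IL1α and IL1β signal through the receptor IL1R1 and the adaptor MyD88 to NF-κB, while the antagonist encoded by Il1rn occupies the same receptor without signalling and the decoy receptor IL1R2 captures ligand. NLRP3 is a sensor that assembles an inflammasome, in which caspase-1 cleaves the precursors of IL1β and IL18 and the pore protein gasdermin D, so the amount of transcript does not tell how much active cytokine is released. IL33 is a nuclear alarmin of stromal and epithelial cells that acts on ST2, the product of Il1rl1, on mast cells, regulatory T cells and innate lymphocytes. In the peritoneum and in tumors these genes are shared between myeloid, epithelial and stromal cells, and in bulk tissue fewer cells of a type and less RNA per cell cannot be told apart.

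The total count per library lay between 25989217 and 31219650. Every library is labelled tumor tissue, which was checked with the summed level of 16 gastric epithelium genes in CPM (the count per 1000000 counts of a library, on library sizes scaled by TMM, the trimmed mean of M values). The sum was 662 to 3264 CPM in 25 libraries, but only 13.8 to 50.7 CPM in the 3 cured libraries and 37.3 CPM in anti-PD1 replicate 5. The 4 defining genes Gkn1, Gkn2, Tff1 and Muc5ac were at 0 in all 3 cured libraries and were low elsewhere too, at most 3.22 CPM in any library. In uncured mice the keratin gene Krt8 alone was 1155 to 1486 CPM of a sum of 2784 to 3264 CPM. The summed level of 7 mesothelium genes was low in the same libraries, at 60.4 to 240 CPM in cured mice and 182 CPM in anti-PD1 replicate 5. Elsewhere it was 441 to 1694 CPM. The gastric epithelium sum is therefore not a measure of gastric tumor cells alone. The summed level of 14 skeletal muscle genes was 278055 to 315070 CPM in the cured libraries, 285351 CPM in anti-PD1 replicate 5 and 240421 CPM in untreated replicate 2 at day 35, against at most 224273 CPM in the other libraries. The cured libraries and anti-PD1 replicate 5 stood apart on the gastric epithelium and muscle sums before any comparison. Untreated replicate 2 was high in muscle genes, and its gastric epithelium sum (850 CPM) lay within the range of the 25 libraries. That sum was 2203 to 2749 CPM in the other untreated mice of day 35. The 10 neutrophil genes summed to 33.5 CPM in replicate 2, against 97.4 to 119 CPM in those mice. Its 10 macrophage genes summed to 572 against 859 to 1377 CPM, and its 8 mast cell genes to 58.3 against 119 to 152 CPM. Its 8 endothelium genes were higher, at 618 against 420 to 480 CPM. Gene counts that rest on anti-PD1 replicate 5 or untreated replicate 2 are given with and without that library.

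The promoters of the 3 genes of the IL1 receptor axis with the largest differences between cured and untreated mice are shown first, since the ligands Il1a and Il1b and their antagonist Il1rn were all lower in cured mice. Il1rn has 3 RefSeq starts, of which the outermost is shown. Each sequence runs from 250 bases before to 50 bases after the RefSeq start of the gene (build GRCm38.p6, gene strand). Il1rn lies at chr2:24336610-24336909 on the plus strand, Il1a at chr2:129309923-129310222 and Il1b at chr2:129371090-129371389, both on the minus strand. Capitals mark matches on either strand to the AP-1 motif TGANTCA or the PU.1 motif GAGGAA.
Il1rn: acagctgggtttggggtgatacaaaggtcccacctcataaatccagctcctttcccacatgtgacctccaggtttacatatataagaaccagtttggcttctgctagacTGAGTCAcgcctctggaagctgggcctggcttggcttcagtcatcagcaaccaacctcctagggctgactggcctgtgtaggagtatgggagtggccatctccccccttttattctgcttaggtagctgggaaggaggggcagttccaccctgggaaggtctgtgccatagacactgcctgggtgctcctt
Il1a: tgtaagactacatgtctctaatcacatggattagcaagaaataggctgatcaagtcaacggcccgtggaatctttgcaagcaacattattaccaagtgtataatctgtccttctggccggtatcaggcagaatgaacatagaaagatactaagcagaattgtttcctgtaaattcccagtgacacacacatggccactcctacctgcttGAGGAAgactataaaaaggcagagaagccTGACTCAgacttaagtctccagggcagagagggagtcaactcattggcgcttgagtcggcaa
Il1b: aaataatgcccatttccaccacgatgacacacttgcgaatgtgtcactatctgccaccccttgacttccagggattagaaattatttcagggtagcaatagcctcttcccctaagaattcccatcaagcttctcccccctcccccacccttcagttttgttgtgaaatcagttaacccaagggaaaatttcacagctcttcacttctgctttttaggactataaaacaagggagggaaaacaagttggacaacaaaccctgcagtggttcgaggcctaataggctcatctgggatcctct
The Il1rn promoter held 1 AP-1 match, 141 bases before the start, and the Il1a promoter held 1 AP-1 match 12 bases and 1 PU.1 match 41 bases before the start. The Il1b window held no match to these motifs, to the NF-κB motif or to the GAS motif TTCNNNGAA. Of 32851 RefSeq promoters of the same length, 7.81% held an AP-1 match, 28.3% a PU.1 match, 4.51% an NF-κB match and 8.30% a GAS match, so these matches are a description of the letters.

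Per kilobase of exon, Casp1 was the most abundant of the 10 genes in untreated mice at day 35, at a mean of 32.7 CPM per kilobase, followed by Il18 (29.6) and Il33 (18.8). Il1r1 stood at 9.29, Il1rn at 7.89, Il1b at 3.83 and Il1r2 at 2.49 CPM per kilobase. Il1rl1 (1.15), Nlrp3 (0.873) and Il1a (0.544) were the lowest. Il1a rested on 11 to 61 counts per library in that group, so its values carry the largest counting error. Values below are CPM per gene and are compared between groups only.

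**Figure D1:**
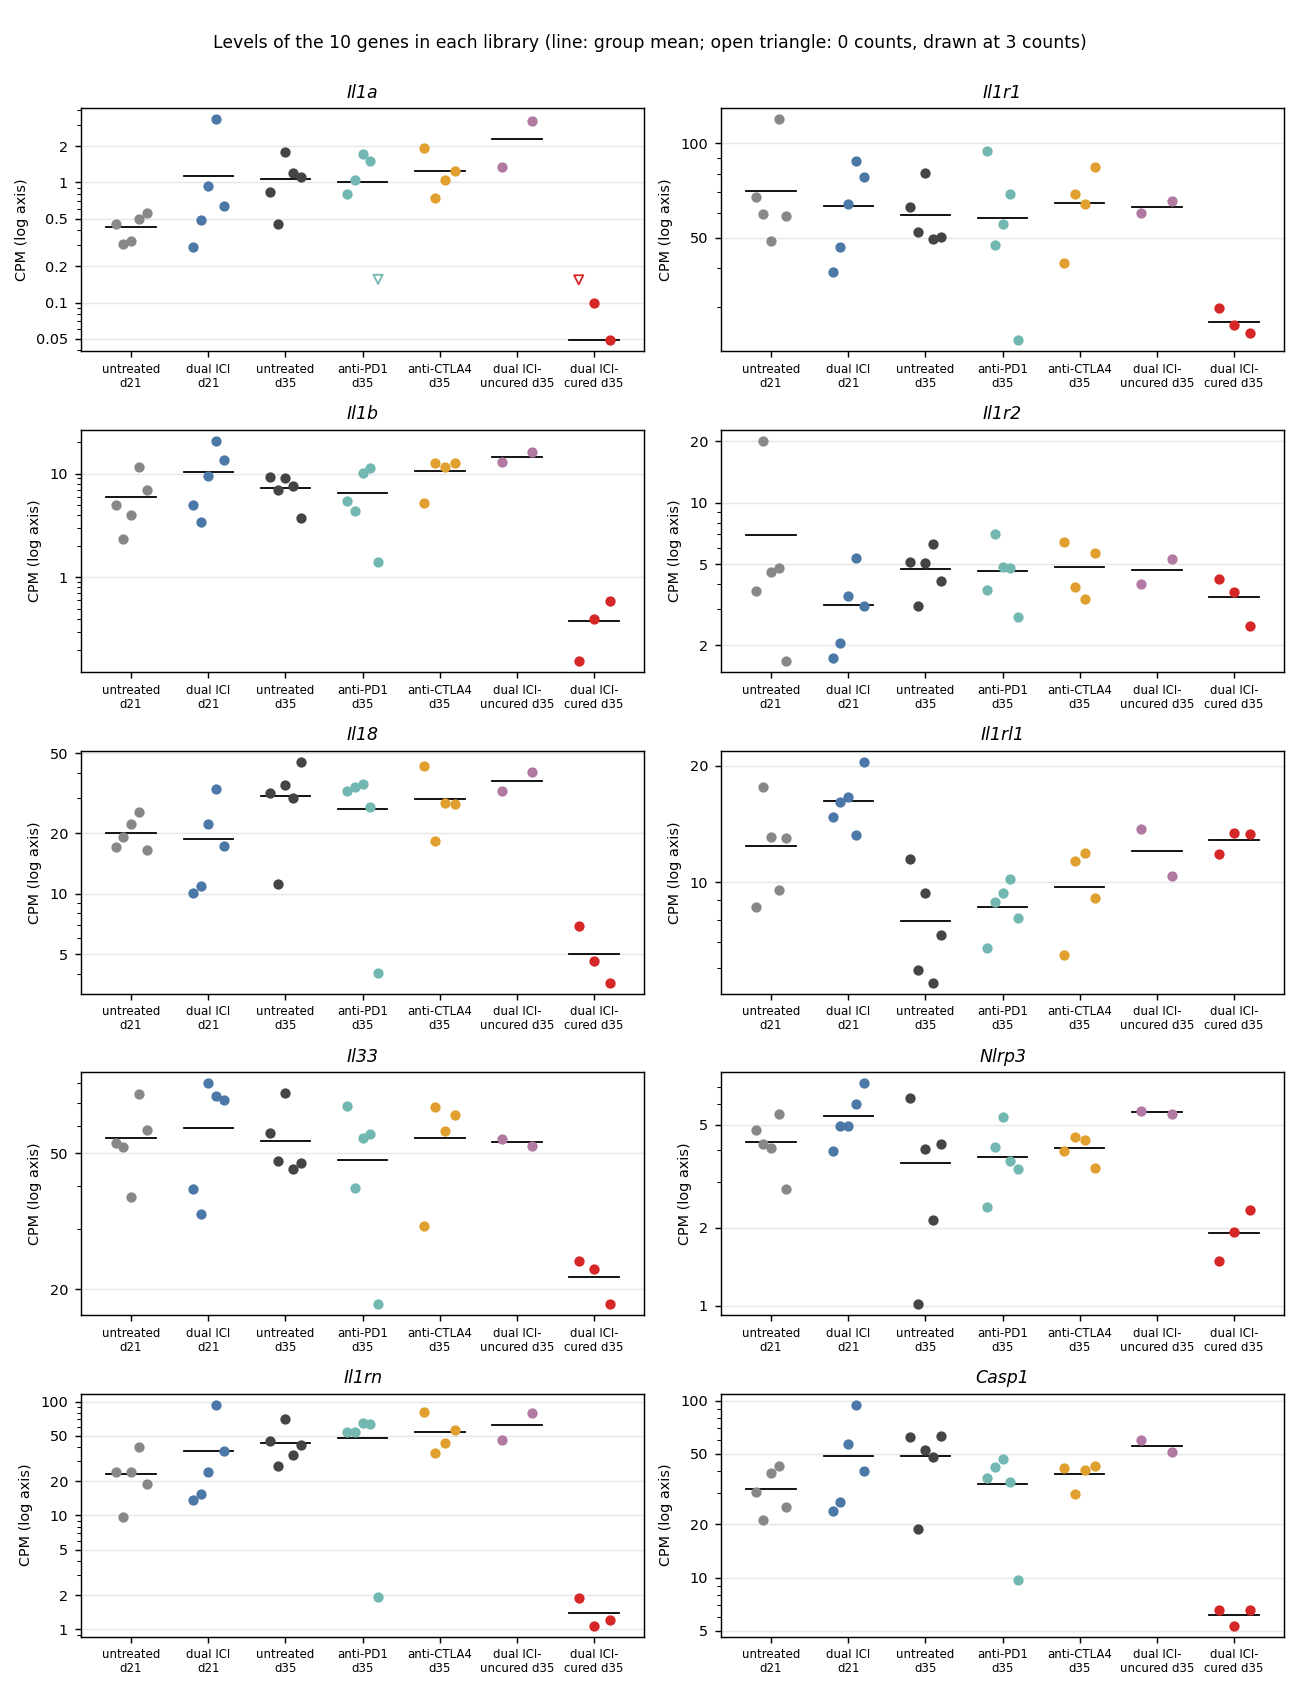
CPM of each of the 10 genes (log axis) in every library, by group; each point is 1 mouse, the line is the group mean and an open triangle marks 0 counts, drawn at 3 counts. Il1a, Il1b, Il1rn, Il18 and Casp1 were lowest in the 3 cured mice and in anti-PD1 replicate 5, and Il1rl1 was not.

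Cured mice had lower levels of most of these genes than untreated mice at day 35. In edgeR's quasi-likelihood test, with p-values of 15816 genes adjusted by Benjamini-Hochberg, 7 of the 10 genes were lower and 1 was higher at an adjusted p under 0.05, where 26.7% of all genes were lower and 18% were higher. Among the genes above the count floor the largest difference was in Il1rn, at 30.9-fold, and the single gene that was higher was Il1rl1, at 1.63-fold. The median log2 fold change was -1.95 over the 10 genes and -0.05 over all genes tested. The cured libraries are also low in gastric epithelium and high in skeletal muscle genes, as given above, and their 10 neutrophil genes summed to 7.68 to 9.56 CPM against 33.5 to 119 CPM in untreated mice. The part of these cell types in the differences was not tested.

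Il1a, the membrane-associated and nuclear alarmin of the family (chr2:129299610-129309972, GRCm38, 222 of its exonic bases shared with Gm14023 on the other strand), was 0, 0.0984 and 0.0488 CPM in the 3 cured mice, which is 0, 2 and 1 counts. In untreated mice at day 35 it was 0.828, 0.447, 1.79, 1.19 and 1.11 CPM. The groups did not overlap, and with a floor of 3 counts in a library (0.155 CPM) the level in cured mice was at least 6.95-fold lower (adjusted p = 0.00200).

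Il1b, the inflammasome-dependent ligand (chr2:129364570-129371139, 25 exonic bases shared with the antisense gene Il1bos), was 0.155, 0.394 and 0.585 CPM in cured mice. In untreated mice it was 9.34, 6.94, 9.02, 7.55 and 3.70 CPM. The highest cured value was under the lowest untreated value, and Il1b fell by 4.24 ± 0.48 (SE) on the log2 scale, 18.9-fold (adjusted p = 0.000218).

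Il18, whose precursor is made without stimulation by epithelial cells and macrophages (chr9:50554827-50581840), was 6.91, 4.63 and 3.61 CPM in cured mice. In untreated mice it was 31.6, 11.2, 34.8, 29.8 and 45.2 CPM, and the lowest of these was the muscle-rich replicate 2. The groups did not overlap, and the difference was 6.00-fold (log2 fold change -2.58 ± 0.42, adjusted p = 0.00138).

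Il33 (chr19:29925114-29960718) was 24.1, 23.0 and 18.1 CPM in cured mice and 57.2, 47.3, 74.8, 44.8 and 46.8 CPM in untreated mice. The decrease was smaller than that of the other ligands, at 2.48-fold, but the groups did not overlap (log2 fold change -1.31 ± 0.21, adjusted p = 0.00110).

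Il1rn, the receptor antagonist (chr2:24336853-24351494), was 1.91, 1.08 and 1.22 CPM in cured mice. It was 44.8, 27.1, 70.9, 33.9 and 41.7 CPM in untreated mice, so that the lowest untreated mouse was far above the highest cured mouse. Its log2 fold change was -4.95 ± 0.39 (adjusted p = 0.000108).

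The signalling receptor Il1r1 (chr1:40225080-40317257) was 29.8, 26.4 and 24.9 CPM in cured mice and 62.8, 52.3, 80.7, 49.5 and 50.4 CPM in untreated mice. It was 2.18-fold lower without overlap (adjusted p = 0.00168). The decoy receptor Il1r2 (chr1:40074079-40125231) was 4.23, 3.64 and 2.49 CPM in cured and 3.13 to 6.28 CPM in untreated mice, and these ranges overlapped (log2 fold change -0.45 ± 0.28, adjusted p = 0.207).

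Il1rl1, which encodes both the membrane and the soluble form of ST2 and is counted here as 1 gene (chr1:40429570-40465415), went the other way. It was 11.8, 13.4 and 13.3 CPM in cured mice and 11.5, 5.93, 9.40, 5.49 and 7.30 CPM in untreated mice. The lowest cured mouse lay just above the highest untreated mouse, and the log2 fold change was 0.71 ± 0.25 (adjusted p = 0.0411). This call was lost with upper-quartile normalization (adjusted p = 0.0609), with a minimum of 10 counts in every library (adjusted p = 0.0639), and when any of the 3 cured mice, untreated replicate 3 or untreated replicate 5 was left out (adjusted p = 0.0515 to 0.122). The 8 mast cell genes, a cell type that carries ST2, summed to 92.4 to 110 CPM in cured and 58.3 to 152 CPM in untreated mice, and their part in the Il1rl1 difference was not tested.

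Casp1, the effector protease of the inflammasome (chr9:5298517-5307265), was 6.54, 5.36 and 6.54 CPM in cured mice. In untreated mice it was 62.3, 18.8, 52.5, 48.2 and 63.1 CPM, with the muscle-rich replicate 2 again the lowest. The difference was 7.89-fold without overlap (log2 fold change -2.98 ± 0.37, adjusted p = 0.000345). The sensor Nlrp3 (chr11:59541568-59566956) was 1.49, 1.92 and 2.34 CPM in cured mice and 6.34, 1.01, 4.01, 2.15 and 4.19 CPM in untreated mice, where replicate 2 lay below all cured mice. Its log2 fold change of -0.87 ± 0.51 did not pass the test (adjusted p = 0.184). It passed with all 29 libraries in 1 edgeR fit, at -0.89 ± 0.37 (adjusted p = 0.0484). It also passed without untreated replicate 2, at -1.10 ± 0.36 (adjusted p = 0.0272). Without that mouse, the other 8 calls held and 9 of the 10 genes passed, 8 of them lower and 1 higher, where 31.9% of all genes were lower and 27.6% higher.

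**Figure D2:**
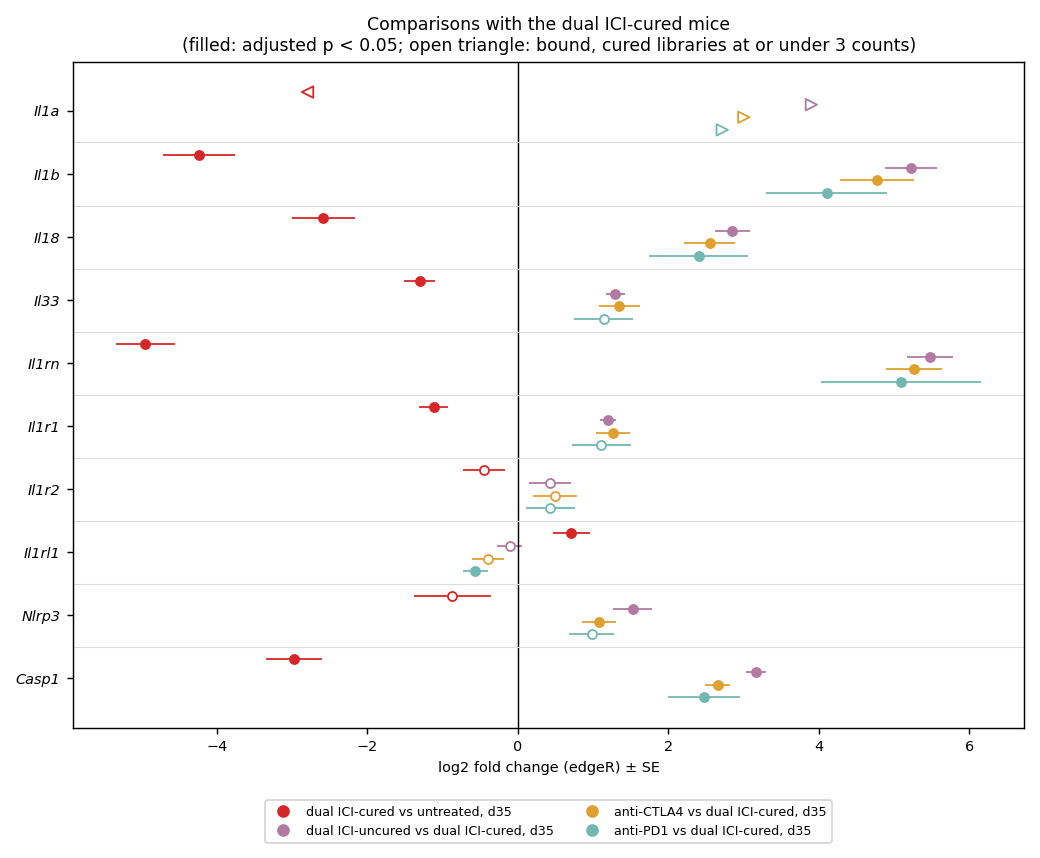
Log2 fold change (± SE) of the 10 genes for cured mice against untreated mice and for uncured, anti-PD1 and anti-CTLA4 mice against cured mice at day 35; filled points passed the test (edgeR, adjusted p under 0.05) and open triangles are bounds for Il1a. Il1rn and Il1b lie furthest from 0 among the genes above the count floor, and Il1r2 passed in none of the 4 comparisons.

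The 3 other groups at day 35 were each set against the same 3 cured mice, so these comparisons share their reference. In dual ICI-uncured mice, 8 of the 10 genes were higher than in cured mice (36.9% of all genes were higher), and in anti-CTLA4 mice the count was also 8 (33.6% of all genes). Il1b was 12.9 and 16.2 CPM in the 2 uncured mice and 5.24, 12.6, 11.6 and 12.7 CPM in the anti-CTLA4 mice. The log2 fold changes over cured mice were 5.22 ± 0.35 (adjusted p = 3.1e-06) and 4.77 ± 0.49 (adjusted p = 0.000161).

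Il1rn was 45.6 and 79.8 CPM in uncured mice, 44.5-fold above cured mice (log2 fold change 5.47 ± 0.30). Casp1 was 60.0 and 51.0 CPM, 8.94-fold above (log2 fold change 3.16 ± 0.13), and Nlrp3 was 5.67 and 5.503 CPM, 2.87-fold above (adjusted p = 0.000707). Nlrp3 therefore passed against uncured mice and against anti-CTLA4 mice (log2 fold change 1.08 ± 0.23, adjusted p = 0.00403). Il1a was 1.34 and 3.27 CPM in uncured mice, at least 14.9-fold above the floor of the cured mice, and at least 8.01-fold above it in anti-CTLA4 mice. The genes that did not pass in either comparison were Il1r2 (log2 fold changes 0.42 and 0.49) and Il1rl1 (-0.11 and -0.40).

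In anti-PD1 mice, 4 genes were higher and 1 was lower than in cured mice (16.3% of all genes were higher and 2.53% lower). The genes that were higher were Il1b (log2 fold change 4.10 ± 0.80), Il1rn (5.09 ± 1.07), Il18 (2.40 ± 0.65) and Casp1 (2.47 ± 0.48), with Il1rl1 lower (-0.56 ± 0.16, adjusted p = 0.0472). The Il1rl1 call was also lost with upper-quartile normalization (adjusted p = 0.0514), without a low-count filter (0.0615), with a minimum of 10 counts (0.0589) and with all 29 libraries in 1 fit (0.0546). Anti-PD1 replicate 5 stood apart from its group, and whether it is the cured anti-PD1 mouse cannot be told from these sources. Its Il1rn was 1.92 CPM against 53.5, 53.9, 64.4 and 63.8 CPM in the other anti-PD1 mice, its Il18 was 4.06 against 26.9 to 34.96 CPM, and its Il1a was 0 counts, which allows up to 0.156 CPM. Its Casp1 was 9.72 CPM and its neutrophil sum 9.98 CPM, against 5.36 to 6.54 CPM and 7.68 to 9.56 CPM in the cured mice. With this library the Il18 values of the groups overlapped, although the gene passed the test. Without this library 9 of the 10 genes passed, with Il1a, Il1r1, Il33 and Nlrp3 added, and the shares of all genes rose as well, to 36.5% higher and 31.9% lower, whereas leaving out any other library of this comparison left 0 genes called at all.

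Outside the cured mice, none of the 10 genes passed the test between treated and untreated mice of the same day. In dual ICI mice at day 21, 0 of the 10 genes passed against untreated mice, where 0.574% of all genes did, and DESeq2 also called 0. At an unadjusted p under 0.05 there was 1, Il1a, and 10.7% of all genes. Il1a was 0.289, 0.484, 0.926, 3.34 and 0.636 CPM in dual ICI mice and 0.454, 0.310, 0.326, 0.497 and 0.555 CPM in untreated mice, and the groups overlapped (log2 fold change 1.44 ± 0.61, adjusted p = 0.418 in edgeR).

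Dual ICI replicate 4 at day 21 was the highest library of its group for 7 of the 10 genes, which were Il1a, Il1b (20.8 CPM), Il18 (33.2), Il1rn (93.6), Il1r1 (87.7), Il1r2 (5.38) and Casp1 (94.7 CPM). The same library had the highest gastric epithelium sum (2361 CPM) and neutrophil sum (107 CPM) of the group. The other dual ICI mice ranged from 13.7 to 36.5 CPM for Il1rn and from 23.7 to 56.7 CPM for Casp1, where untreated mice ranged from 9.64 to 39.9 and from 21.2 to 42.8 CPM. The ranges therefore overlapped with and without it, and 0 genes passed when it was left out.

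In uncured mice at day 35, 0 of the 10 genes passed against untreated mice (0% of all genes), and DESeq2 called 0 of the 10. At an unadjusted p under 0.05 there was 1, Il1b, beside 4.87% of all genes. Both uncured mice (12.9 and 16.2 CPM) lay above all 5 untreated mice (3.70 to 9.34 CPM), with a log2 fold change of 0.99 ± 0.33 (adjusted p = 0.734 in edgeR). The interaction of dual ICI treatment with day, which compares the effect in uncured mice at day 35 with the effect at day 21, passed for 0 of the 10 genes (0% of all genes) and for 0 at an unadjusted p under 0.05 (6.35% of all genes), and DESeq2 called 0 of the 10. The interaction cannot separate day from the further doses of the day 35 mice or from the selection of uncured mice by outcome.

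The monotherapies were compared with the same untreated mice of day 35. For anti-PD1, 0 genes passed (0% of all genes), 0 had an unadjusted p under 0.05 (1.31% of all genes) and DESeq2 called 0. For anti-CTLA4, the counts were also 0 (0% of all genes), 0 unadjusted (0.811% of all genes) and 0 in DESeq2. The largest difference was the log2 fold change of Casp1 in anti-PD1 mice, -0.53 ± 0.41, where anti-PD1 replicate 5 was again the lowest. Without that library it was -0.30 ± 0.28. With 2 to 5 mice per group, these results do not show that the levels were alike.

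**Figure D3:**
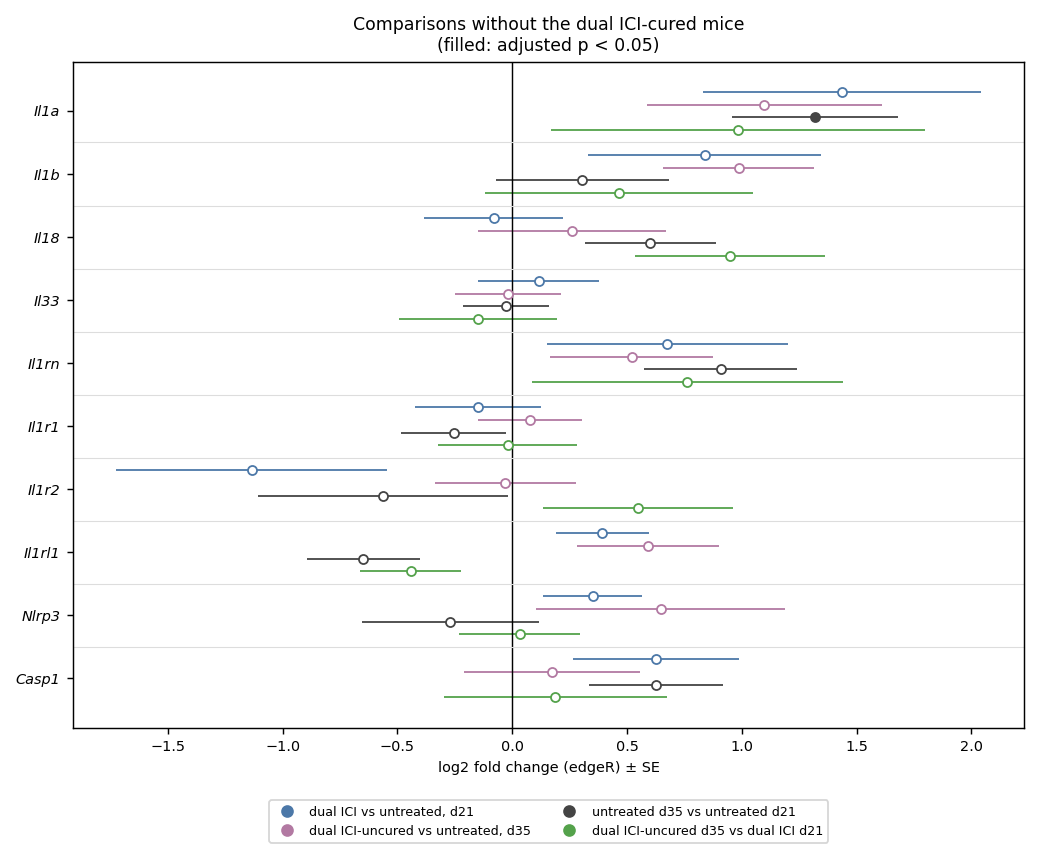
Log2 fold change (± SE) of the 10 genes in the comparisons of dual ICI, uncured and untreated mice at day 21 and day 35; filled points passed the test (edgeR, adjusted p under 0.05). Only Il1a between untreated mice at day 35 and day 21 is filled, and the SE bars of Il1r2 and Il1a are among the widest.

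Between day 21 and day 35, untreated mice differed in 1 of the 10 genes, where 6.24% of all genes were higher at day 35. Il1a was 0.310 to 0.555 CPM at day 21 and 0.447 to 1.79 CPM at day 35, and only the muscle-rich replicate 2 of day 35 fell within the range of day 21. Its log2 fold change was 1.32 ± 0.36 (adjusted p = 0.0400), and the call was lost without any 1 of the other 9 mice (adjusted p = 0.0521 to 0.0952). It was also lost without a low-count filter (adjusted p = 0.0517) and with all 29 libraries in 1 fit (0.161), where Il1rl1 was the single gene that passed, lower at day 35 (log2 fold change -0.64, adjusted p = 0.0430). DESeq2 called 2 genes, Il1a and Il1rn (adjusted p = 0.0480), where 11.9% of all genes were higher by that tool. Without untreated replicate 2 of day 35, Il1rn (log2 fold change 1.03), Il18 (0.81) and Casp1 (0.83) passed along with Il1a, where 16.4% of all genes were higher.

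Uncured mice at day 35 and dual ICI mice at day 21 differed in 0 of the 10 genes (5.31% of all genes passed), in 1 at an unadjusted p under 0.05 (28.8% of all genes), and in 0 by DESeq2. That gene was Il18, at 32.6 and 40.5 CPM in uncured mice and 10.1, 10.9, 22.3, 33.2 and 17.3 CPM at day 21 (log2 fold change 0.95 ± 0.41, adjusted p = 0.172 in edgeR). Without dual ICI replicate 4 of day 21, 3 genes passed, namely Il1a (log2 fold change 1.96), Il1rn (1.48) and Il18 (1.27), where 12.2% of all genes were higher.

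Ordered by mean level, the cured mice came last for 8 of the 10 genes, the exceptions being Il1r2 and Il1rl1. For Il1rn the means ± SD were 62.7 ± 24.2 CPM (n = 2) in uncured, 53.9 ± 19.7 (n = 4) in anti-CTLA4, 47.5 ± 26.0 (n = 5) in anti-PD1 and 43.7 ± 16.7 CPM (n = 5) in untreated mice at day 35. They were 36.7 ± 33.1 (n = 5) in dual ICI and 23.3 ± 11.0 CPM (n = 5) in untreated mice at day 21, and 1.40 ± 0.442 CPM (n = 3) in cured mice. Neighbours in this order differed by less than the larger SD, except the last pair, which did not overlap. For Il1rl1 the order was another one: 16.2 ± 2.72 CPM in dual ICI mice at day 21, 12.9 ± 0.911 in cured mice, 12.4 ± 3.54 in untreated mice at day 21 and 12.0 ± 2.35 in uncured mice, down to 9.72 ± 2.48 in anti-CTLA4, 8.64 ± 1.31 in anti-PD1 and 7.93 ± 2.52 CPM in untreated mice at day 35. Only the step from the first to the second of these exceeded the larger SD, and their ranges overlapped.

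Ratios of ligand and receptor were taken per kilobase within each library, which removes the library scaling. Il33 over Il1rl1 was 3.26 to 4.88 in cured mice and 11.9 to 19.5 in untreated mice at day 35 (log2 difference -2.05). The exact two-sided permutation p was 0.0357, the smallest that 3 mice against 5 allow, and the p adjusted over 40 ratio tests was 0.571. Il1rn over the sum of Il1a and Il1b was 0.664 to 4.25 in cured and 1.27 to 3.01 in untreated mice and overlapped (log2 difference -0.46, exact permutation p = 0.500). The value of 4.25 was that of cured replicate 2, with 0 counts of Il1a and 3 of Il1b. The other cured mice, at 0.763 and 0.664, lay below all untreated mice. Both the antagonist and the ligands were low in cured mice, and with so few ligand counts their ratio cannot show whether these groups differed.

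The wider pathway was described with 74 other genes in 6 lists. In cured against untreated mice, all 16 tested genes of the list of IL1-responsive genes were lower (26.7% of all genes were lower), with a median log2 fold change of -2.35 beside -0.05 over all genes (also -2.35 with the genes at 0 in cured mice set to their bounds). They included the iron-binding Lcn2 (-4.88 ± 0.43), the nitric oxide synthase Nos2 (-1.99 ± 0.18), the neutrophil chemokine Cxcl5 (-8.05 ± 0.76) and the adhesion molecule Icam1 (-2.42 ± 0.28). The chemokines Cxcl3 and Ccl20 had 0 counts in all cured libraries and were at least 27.3-fold and 23.5-fold lower. Areg, an epidermal growth factor receptor ligand and the single tested gene of the list of IL33- and IL18-induced genes, was at least 28.4-fold lower. Many of these genes respond to other stimuli as well and are made by epithelial cells and neutrophils.

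Of 22 inflammasome and pyroptosis genes, 11 were lower and 0 higher in cured than in untreated mice (26.7% and 18% of all genes), with a median of -0.96. The lipopolysaccharide-sensing caspase Casp4 (-2.75 ± 0.25) and the pore-forming Gsdmd (-2.16 ± 0.30) were among them, as were Naip1 (-6.32 ± 0.73), a member of a family of near-identical copies whose reads may be shared, and Nlrp6 (-7.11 ± 0.88), a sensor of epithelial cells. The adaptor Pycard, which links sensors to caspase-1, was 6.91 to 7.46 CPM in cured and 7.02 to 18.2 CPM in untreated mice and did not pass (-0.64 ± 0.28, adjusted p = 0.0881). Pycard was 10.5 to 22.05 CPM in dual ICI mice and 7.70 to 9.13 CPM in untreated mice at day 21, without overlap, and edgeR's adjusted p there was 0.0820 while that of DESeq2 was 0.00345.

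Of 16 receptor signalling genes, 6 were lower and 1 was higher in cured mice, with a median of -0.12, beside 26.7% and 18% of all genes. The kinase Irak2 (-1.59 ± 0.26), the adaptor Myd88 (-0.70 ± 0.14), Irak4 (-0.85 ± 0.20) and the NF-κB subunit Rela (-0.65 ± 0.15) were lower. Of the 5 other receptors tested, the IL18 receptor chains Il18rap (-3.14 ± 0.39) and Il18r1 (-2.14 ± 0.33) and the inhibitory Sigirr (-1.51 ± 0.25) were lower, and the IL36 receptor Il1rl2 was higher (0.61 ± 0.22). The shared co-receptor Il1rap was 5.77 to 6.93 CPM in cured and 4.02 to 8.58 CPM in untreated mice (0.06 ± 0.25, adjusted p = 0.858). Il18bp, the soluble inhibitor of IL18 and the single tested gene among the other ligands and antagonists, was lower (-1.29 ± 0.21, adjusted p = 0.00148). Without untreated replicate 2, 16 of 16 IL1-responsive, 14 of 22 inflammasome, 6 of 16 signalling and 3 of 5 other receptor genes were lower, with 0, 1, 3 and 1 higher, beside 31.9% and 27.6% of all genes.

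**Figure D4:**
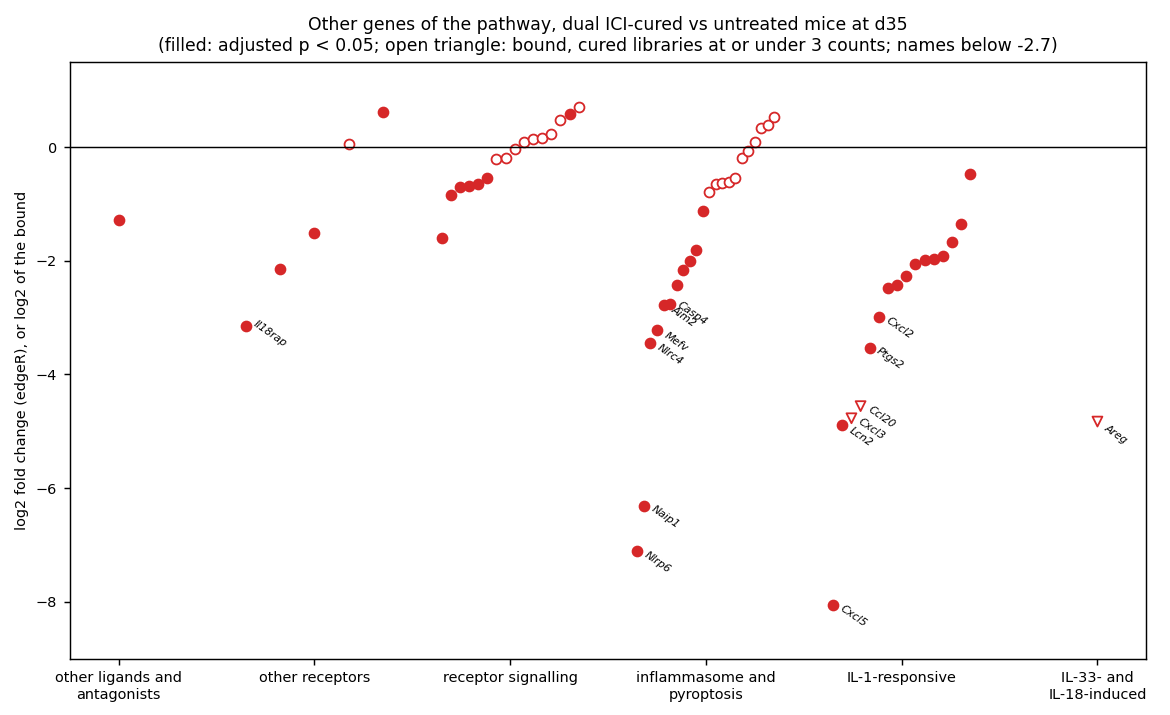
Log2 fold change of each tested gene of the 6 pathway lists for cured against untreated mice at day 35; each point is 1 gene, filled where it passed the test (edgeR, adjusted p under 0.05), an open triangle is a bound for a gene at or under 3 counts in every cured library, and genes far below 0 are named. All 16 IL1-responsive genes lie below 0, while the 16 receptor signalling genes lie on both sides of it.

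Against cured mice, uncured mice had 16 of 16 IL1-responsive genes, 16 of 22 inflammasome genes, 7 of 16 signalling genes and 3 of 6 other receptors higher, with 0, 2, 5 and 1 lower, where 36.9% of all genes were higher and 33.1% lower. The signalling counts lie near these shares. Both tested genes of the other ligands and antagonists were higher, Il18bp (log2 fold change 1.57 ± 0.21) and Il1f9, at least 5.08-fold, and of 2 tested IL33- and IL18-induced genes Areg was higher, at least 54.8-fold. Il1rapl2 was at 0 in both uncured mice and at least 5.34-fold lower than in cured mice. Anti-CTLA4 mice had 16 of 16 IL1-responsive, 14 of 22 inflammasome, 6 of 16 signalling, 3 of 5 other receptor, 1 of 1 other ligand and 1 of 1 induced genes higher, with 0, 1, 3, 0, 0 and 0 lower, beside 33.6% of all genes higher and 28.8% lower. In anti-PD1 mice the counts higher, in the same order of lists, were 13 of 16, 10 of 22, 2 of 16, 3 of 5, 2 of 2 and 1 of 1, with 0 lower in each list, where 16.3% of all genes were higher. Without anti-PD1 replicate 5 they were 16 of 16, 14 of 22, 7 of 16, 3 of 5, 2 of 2 and 1 of 1, with 2 inflammasome and 3 signalling genes lower (36.5% of all genes higher, 31.9% lower), and without any other library of that comparison 0 list genes passed. In the interaction and in the comparisons of untreated mice with treated mice of the same day other than the cured mice, 0 genes of every list passed in edgeR.

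At day 21 DESeq2 called 5 list genes between dual ICI and untreated mice, where it called 3.27% of all genes. At an unadjusted p under 0.05 in edgeR there were 9, beside 10.7% of all genes. Of 5 other receptor and 16 signalling genes there were 0. The rest were 4 of 22 inflammasome, 2 of 16 IL1-responsive, 2 of 3 induced and 1 of 1 other ligand genes. The 5 genes, named here because of that count, were Ifng, the interferon gene that IL18 induces in lymphocytes (log2 fold change 2.20 ± 0.44, adjusted p = 0.0539 in edgeR), Areg (1.37 ± 0.38, adjusted p = 0.162 in edgeR), Pycard, Il18bp (0.80 ± 0.22, adjusted p = 0.158 in edgeR) and Lcn2 (-0.87 ± 0.19, adjusted p = 0.0776 in edgeR). The summed level of 9 T cell genes was 42.0 to 79.9 CPM in dual ICI and 14.3 to 25.8 CPM in untreated mice, and its part in these values was not tested. Between uncured and untreated mice at day 35, 8 list genes had an unadjusted p under 0.05 in edgeR, where 4.87% of all genes did. These were 4 of 22 inflammasome, 2 of 16 IL1-responsive and 2 of 3 induced genes. Of 2 other ligand, 5 other receptor and 16 signalling genes there were 0. DESeq2 called 0 list genes in that comparison. For anti-PD1 against untreated mice the counts were 1 (Casp4, beside 1.31% of all genes) and 0. For anti-CTLA4 (0.811% of all genes unadjusted) and for the interaction (6.35%) both counts were 0.

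From day 21 to day 35 in untreated mice, 4 of 16 IL1-responsive genes were higher (6.24% of all genes). Lcn2 was 7.29 to 12.9 CPM at day 21 and 15.9 to 48.1 CPM at day 35 (log2 fold change 1.76 ± 0.29), and the acute phase gene Saa3 was 1.08 to 5.37 and 7.31 to 43.0 CPM (2.503 ± 0.48). Ccl20 (1.84 ± 0.48) and Icam1 (0.83 ± 0.23) were also higher, as was Sigirr (1.02 ± 0.21), while Nlrp1b was lower (-0.79 ± 0.22, with 4.58% of all genes lower). Lcn2, Saa3 and Sigirr passed whichever single library was left out. The number of IL1-responsive genes that were higher was 2 without any 1 of 8 of the mice, and 7 without replicate 2 of day 35 (16.4% of all genes higher, 14.8% lower) or without replicate 4 of day 21. Uncured mice at day 35 also had higher Lcn2 (2.02 ± 0.20), Saa3 (1.44 ± 0.21) and Sigirr (0.90 ± 0.21) than dual ICI mice at day 21, where 3.05% of all genes were higher. These 3 calls were all lost when either of the 2 uncured mice, or dual ICI replicate 3, was left out, and all 3 held only without dual ICI replicate 4.

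Levels were then set against the summed marker genes of 5 cell types, a comparison chosen after the data were seen. In 25 libraries, after the 4 libraries with a gastric epithelium sum under 100 CPM were left out and group means were subtracted, log2 Casp1 was correlated with the log2 neutrophil sum (r = 0.933, rho = 0.879, permutation p = 2e-05 for both with 100000 permutations, adjusted p = 0.0002 and 0.00025 over 50 relations). The r was 0.907 without the 2 libraries farthest from the median, 0.943 within the day 21 libraries and 0.923 within the day 35 libraries. Casp1 was also correlated with the gastric epithelium sum (r = 0.897, rho = 0.760, adjusted permutation p = 0.000778 and 0.00405) and was lower where muscle was higher (r = -0.780). For Il18, r was 0.908 with the neutrophil sum (rho = 0.894), 0.845 with the gastric sum (rho = 0.787) and -0.872 with the muscle sum (rho = -0.838), and without the 2 farthest libraries it was 0.873, 0.893 and -0.808. The marker sums come from the same libraries, so these relations are not separate.

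Il1rn was correlated with the gastric epithelium sum (r = 0.843, rho = 0.764, adjusted permutation p = 0.000214 and 0.00257), with r = 0.787 without the 2 farthest libraries, 0.954 within day 21 and 0.649 within day 35. Its r was 0.811 with the neutrophil sum (rho = 0.783) and -0.746 with the muscle sum (rho = -0.754). With the macrophage and fibroblast sums it was -0.059 and 0.034. For Il1a, r was 0.757 with the gastric, 0.745 with the neutrophil and -0.692 with the muscle sum (macrophage 0.064, fibroblast -0.088). For Nlrp3, r was 0.713 with the neutrophil, -0.700 with the muscle, 0.676 with the macrophage and 0.569 with the gastric sum (fibroblast 0.357). Il1b was correlated with the gastric epithelium sum at day 21 (r = 0.939 over 10 libraries) but not at day 35 (r = -0.061 over 15 libraries), so the pooled r of 0.566 (rho = 0.485) did not hold within both days and was 0.377 without the 2 farthest libraries. Il1r1 was correlated with the fibroblast sum (r = 0.634, rho = 0.616, adjusted permutation p = 0.00693 and 0.00896), with r = 0.548 without the 2 farthest libraries, 0.661 within day 21 and 0.648 within day 35. For Il33 these values were r = 0.571 and rho = 0.506 (adjusted permutation p = 0.0258 and 0.05002), and 0.516, 0.510 and 0.643. Within day 21, both genes had an r of larger size with other sums. For Il1r1 it was -0.948 with the muscle, 0.845 with the gastric and 0.831 with the neutrophil sum, and for Il33 -0.780, 0.755 and 0.705. Within day 35 these were 0.353, -0.039 and -0.147 for Il1r1, and 0.412, -0.097 and -0.159 for Il33. Il1rl1 was not shown to be related to any of the 5 sums, with r between -0.191 and 0.426 and adjusted permutation p for r between 0.137 and 0.919. For Il1r2, r with the gastric, neutrophil and muscle sums was 0.208, 0.403 and -0.373 (adjusted permutation p = 0.580, 0.134 and 0.118). Its rho was 0.534, 0.597 and -0.571 (adjusted permutation p = 0.0459, 0.0217 and 0.0247). Without the 2 farthest libraries, r was 0.733, 0.269 and -0.279. With the macrophage and fibroblast sums, the r of Il1r2 was 0.200 and 0.123.

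**Figure D5:**
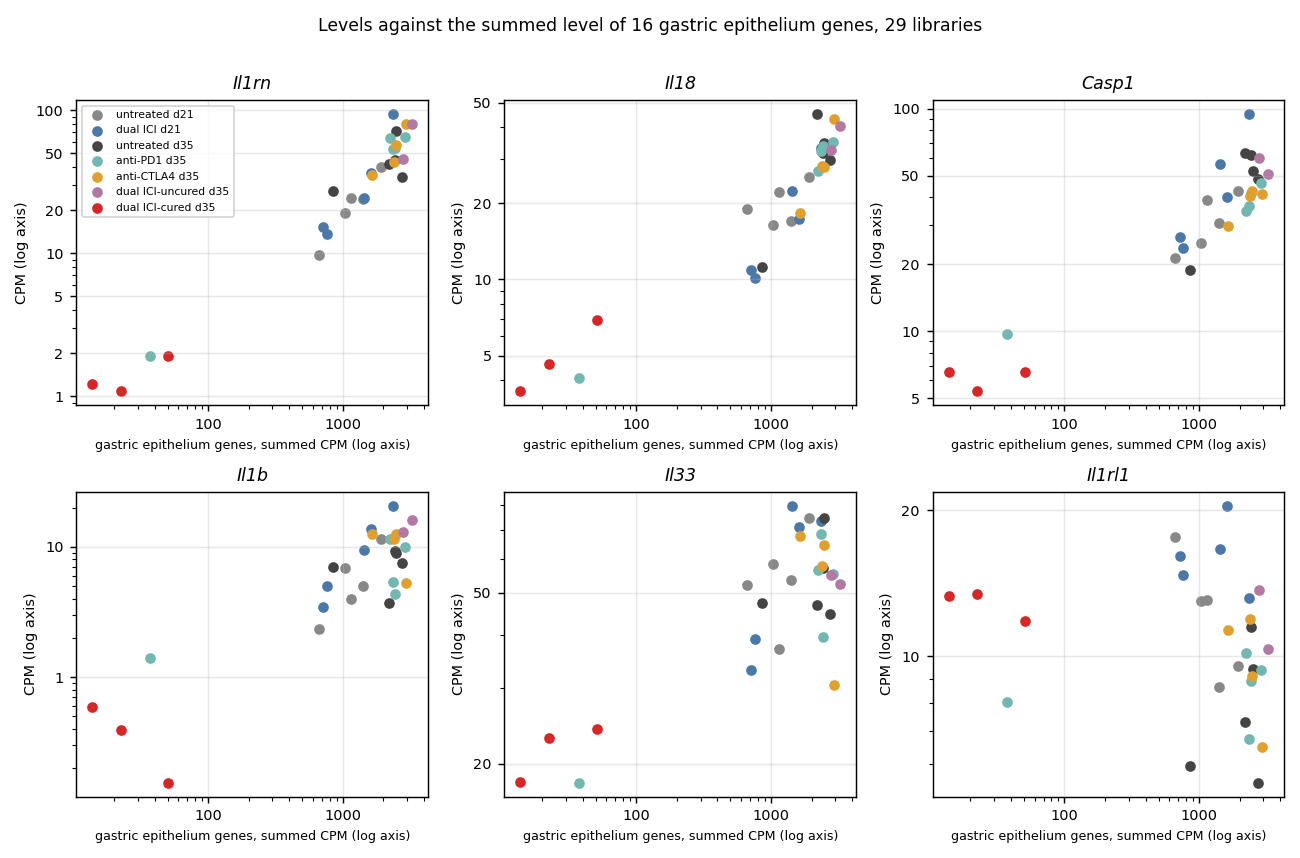
CPM (log axis) of Il1rn, Il18, Casp1, Il1b, Il33 and Il1rl1 against the summed CPM of 16 gastric epithelium genes (log axis), with 1 point for each of 29 libraries in the color of its group. The 3 cured libraries and anti-PD1 replicate 5 lie apart at the left, at sums of 13.8 to 50.7 CPM.

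The genes whose pattern over the 29 libraries was most like each of the 10 are given with Pearson's r of log2 CPM, as a description only, since the groups and tissue makeup are shared by all genes. Il1rn was most like F2rl1 (r = 0.988), Tes (0.986) and Gprc5a (0.985), and Il18 was most like Lrrc8e (0.981), Tmem45b (0.976) and Fam114a1 (0.976). Casp1 was most like Apobec3 (0.978), Aim2 (0.971), itself an inflammasome sensor, and Dennd2d (0.971). Il1r1 and Il33 were each other's nearest gene (r = 0.944), followed by Adam12 and Ptgs2 for Il1r1 and by Tnfrsf11b and Chl1 for Il33.

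Il1rl1 was most like Ccr3 (r = 0.895), a chemokine receptor of eosinophils and mast cells, Gapt (0.893) and F5 (0.885). Nlrp3 was most like Pik3ap1 (0.910), Ptprj (0.896) and Cnr2 (0.891). Il1a was most like Cwh43 (0.955), Epb4.1l5 (0.949) and F3 (0.948), and Il1b was most like Aunip (0.940), Tnfrsf9 (0.939) and Uhrf1 (0.939). Il1r2 had the weakest likeness, with Anxa3 (0.748), Tmem30b (0.698) and Scara3 (0.696).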

How the data were processed

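RNA-seq libraries of 29 mice were analysed. The authors deposited raw counts per gene and library, by gene symbol and without normalization. The submitters' processing notes name STAR 2.7.0f, featureCounts 1.6.4 and mm10, whereas the study's methods name STAR with HTSeq and other versions, and the strand setting and annotation are not given in the sources used here. Counts of overlapping genes, antisense genes and near-identical copies are therefore uncertain. The labels name TRIzol for the RNA extraction and the study's methods ISOGEN.

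From these counts, genes were tested with edgeR 4.0.16 (R 4.3.3): library sizes scaled by TMM, low counts removed with filterByExpr on the groups, and the quasi-likelihood test (glmQLFit, glmQLFTest; two-sided). All p-values of a comparison were adjusted by Benjamini-Hochberg, with a threshold of 0.05. The groups compared entered each fit, and the interaction used 4 groups. CPM values use TMM library sizes over all 29 libraries. Values at 3 counts or fewer in every library of a group were treated as at the floor and their folds given as bounds, which cover counting error only. All 10 genes passed the filter on low counts in every comparison. Per-kilobase levels use exon lengths of GENCODE vM21 (GRCm38), and promoters were taken from RefSeq (GRCm38.p6). Ratios were tested with exact permutation tests in scipy 1.17.1, and relations to marker sums, chosen after seeing the data, with 100000 permutations. pandas 2.3.3, numpy 2.4.6 and matplotlib 3.10.9 were used for tables and plots.

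The 10 genes, the pathway and marker lists and the tests were chosen with earlier results of these data known. Named are the 10 genes, up to 4 genes with the smallest p per list and comparison among those past the threshold, Il1rap, Il18bp, Pycard and Gsdmd throughout, and the 3 genes with the highest r to each of the 10 among genes with a mean of at least 1 CPM (log2 CPM with a prior count of 2). In the comparisons of uncured, anti-CTLA4 and anti-PD1 mice with cured mice, mainly counts are given for the lists.

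Alternatives were DESeq2 1.42.0, upper-quartile normalization, no low-count filter, at least 10 counts in every library, the skeletal muscle genes left out, all 29 libraries in 1 fit, the replicate number as a block, all 5 dual ICI mice of day 35 as 1 group, and each library left out in turn (for the pathway lists, chosen after seeing the data). The fits were tested on simulated data. No 2 libraries of a group agreed within sampling noise (50 pairs, lowest chi-square per gene 13.5). Each library is a separate mouse. Total counts were 25989217 to 31219650. On TMM-scaled library sizes, which differ from these totals, 3 counts correspond to about 0.155 CPM in the cured library with the highest floor. The authors' own methods name DESeq2 for their comparisons.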

Additional observations from a re-analysis of the deposited data

Results flagged for a closer look

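The highest or lowest library of a group was compared with the rest of its group by Dixon's ratio at the 95% level, for 10 genes in the 5 groups of 4 or 5 mice. Of 50 such tests 7 passed, where chance gives about 1 in 20 (2.5). Dual ICI replicate 4 at day 21 stood above its group for Il1a (3.34 CPM, the others 0.289 to 0.926) and for Il1rn (93.6 CPM, the others 13.7 to 36.5). Anti-PD1 replicate 5 stood below its group for Il1rn (1.92 CPM, the others 53.5 to 64.4) and for Il18 (4.06 CPM, the others 26.9 to 34.96). Anti-CTLA4 replicate 1 stood below its group for Il1b (5.24 CPM, the others 11.6 to 12.7). Among untreated mice at day 21, replicate 4 stood above the others for Il1r1 (119 CPM, the others 48.9 to 67.4), and replicate 2 for Il1r2 (20.2 CPM, the others 1.67 to 4.81).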

How the results depend on the processing

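Over the 10 genes, 10 comparisons and the interaction, 30 of the gene results passed the test and 16 of these also passed under every alternative that was run for them. The fit of all 5 dual ICI mice as 1 group mixes cured with uncured mice, so it asks another question. It was run only for cured and for uncured mice against untreated mice, and its values enter these counts. For cured against untreated mice, every call but that of Il1rl1 was lost in that fit alone. No gene result that passed changed direction. A further 14 passed only under an alternative, and 66 passed in none, of which 40 changed sign somewhere.

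For cured against untreated mice, 8 genes passed, 5 with a minimum of 10 counts in every library (8 of the 10 genes tested), and 0 when all 5 dual ICI mice of day 35, cured and uncured, were 1 group. With all 29 libraries in 1 edgeR fit, Nlrp3 passed as well (adjusted p = 0.0484). Leaving out 1 library gave 7 to 9. For anti-PD1 against cured mice, 5 became 9 with DESeq2 and 8 with all 29 libraries in 1 fit, and leaving out 1 library gave 0 to 9. For untreated mice at day 35 against day 21, 1 became 2 with DESeq2, 0 without a low-count filter and 0 with a minimum of 10 counts, under which Il1a was not tested. With all 29 libraries in 1 fit the count was again 1, but the gene was Il1rl1 in place of Il1a. The count was 0 to 4 when 1 library was left out. For uncured mice against dual ICI mice at day 21, leaving out 1 library gave 0 to 3 in place of 0. The count stayed at 8 for uncured and for anti-CTLA4 against cured mice, and at 0 in the other comparisons and the interaction, whenever 1 library was left out. Where this left 1 uncured mouse, it was assumed to vary like the other group. The causes were not tested.

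Same-numbered libraries did not deviate together in every pair of any comparison (r from -0.733 to 0.725), so the numbers are not shown to pair the mice. With 2 to 5 pairs per comparison, a pairing is not excluded. Numbers were taken from the titles, and for dual ICI at day 21 the descriptions carry other numbers, so its pairing rests on the titles. A replicate block gave 10 for anti-PD1 against cured and 4 for uncured against dual ICI mice at day 21, and counts of 8, 8, 1 and 0, equal to those without the block, for cured against untreated, anti-CTLA4 against cured, the day comparison and the rest. In the day comparison the gene was another one, since Il1a was lost (adjusted p = 0.0565) and Il1rn passed (adjusted p = 0.0474). No paired analysis was possible for uncured against cured mice because they share no number.

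Over all genes, DESeq2 called 507 in place of 89 for dual ICI at day 21, 18 in place of 0 for uncured against untreated, 6237 in place of 2968 for anti-PD1 against cured, 3141 in place of 1687 for day 35 against day 21, 3173 in place of 857 for uncured against dual ICI at day 21, and 1 in place of 0 for the interaction. With all 29 libraries in 1 fit, anti-PD1 against cured gave 7146 and uncured against dual ICI at day 21 gave 237. The replicate block gave 209, 4016 (in place of 7067, cured against untreated), 9913 and 3192 for dual ICI at day 21, cured against untreated, anti-PD1 against cured and uncured against dual ICI at day 21. All 5 dual ICI mice as 1 group gave 0 genes. Leaving out 1 library gave 6 to 119, 4491 to 9388, 0 to 10746, 654 to 4915 and 0 to 4006 for dual ICI at day 21, cured against untreated, anti-PD1 against cured, the day comparison and uncured against dual ICI at day 21.

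At 2 to 5 mice per group and 0 to 2 counts of Il1a in cured mice, its level there has only an upper limit. Outcome within dual ICI was read from mouse numbers, and the cured outcome and the low gastric epithelium sum of these samples cannot be told apart.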

Other observations

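When the 3 cured libraries and anti-PD1 replicate 5 were left out, the likeness between genes changed for some of the 10. Over the other 25 libraries, the r of Il1b with Aunip was 0.708 in place of 0.940 over all 29, and its nearest gene was Timeless (r = 0.815). Il1rn was still nearest to F2rl1 (r = 0.950), and Il1r1 and Il33 to each other (r = 0.855). Il1rl1 was nearest to F5 (r = 0.934), Nlrp3 to Cmtm6 (r = 0.949), Casp1 to 2210407C18Rik (r = 0.956), Il1a to Acsbg1 (r = 0.904) and Il18 to Tmem45b (r = 0.955). These values are a description, since the genes share the libraries and their tissue makeup.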
